A study of Danio rerio with 12 samples.

Results

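A set of corticosteroid genes was followed in the kidneys of adult zebrafish: the receptors nr3c1 and nr3c2, the response genes fkbp5 and tsc22d3, and the steroid-inactivating enzymes hsd11b2 and hsd20b2. They were chosen by function, by matching these 6 symbols to the Entrez gene IDs of the deposited files. All 6 were found among 30238 IDs, and all 6 were among the 23732 genes with enough counts to be tested. Total RNA had been sequenced from 3 wild-type kidneys and from 9 kidneys of fish carrying 1 mutant and 1 normal copy of pdx1 (pdx1+/-), a homeobox gene needed for the pancreas and its insulin-producing cells. The labels name neither the mutant allele nor any promoter, and give no sex, age, family, batch, hour of collection or pooling. Whether a sample was 1 fish is not stated either, and the p-values then cover only the spread among these libraries, which may be technical.

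Cortisol is the main corticosteroid of bony fish. It is made by interrenal cells, which correspond to the mammalian adrenal cortex and lie inside the anterior kidney, next to nephrons and blood-forming tissue. Cortisol enters cells, binds a receptor held by heat shock proteins and co-chaperones, and the receptor then moves to the nucleus and changes the transcription of target genes. The glucocorticoid receptor nr3c1 is the main mediator of the stress response in zebrafish, and the mineralocorticoid receptor nr3c2 binds cortisol as well, since fish make no aldosterone. Hsd11b2 oxidises cortisol to cortisone, and Hsd20b2 reduces cortisone to 20β-hydroxycortisone, a step described in zebrafish as part of cortisol removal. Fkbp5 is a co-chaperone that lowers the receptor's affinity for the hormone, and its gene is itself a receptor target. Tsc22d3, known in mammals as the glucocorticoid-induced leucine zipper, is encoded by another target gene.

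Libraries held between 16041392 and 19483852 estimated counts, and 3 counts, taken as the floor of detection, corresponded to between 0.156 and 0.184 CPM (counts scaled to a common library size). Ribosomal RNA genes took between 4.1% and 5.64% of the counts in wild-type and between 5.72% and 9.10% in heterozygous libraries, so the groups did not overlap. The part of this share in the genotype differences below was not tested. Summed markers of exocrine pancreas reached 134 CPM in heterozygous replicate 8 and 52.4 CPM in the next library, against at most 8.85 CPM in the others. Summed hepatocyte markers reached 1359 CPM in heterozygous replicate 4, against at most 171 CPM in the others. The kidney's own markers were present in every library, with proximal tubule markers summing to at least 3550 CPM. The estimated counts of pdx1 were 14, 10 and 6 in wild type and lay between 0 and 10 in heterozygous kidneys, too few for a check of the genotype labels.

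The 6 genes spanned a wide range of levels, compared here in TPM (a transcript abundance that accounts for length). The co-chaperone fkbp5 was the most abundant, with a mean of 567.7 TPM over the 12 kidneys, rank 164 of all tested genes. The oxidising enzyme hsd11b2 followed with 211 TPM, rank 337. The means of tsc22d3 and hsd20b2 were 82.7 and 60.0 TPM. Both receptors were far lower: nr3c2 had a mean of 2.32 TPM, and nr3c1, listed at 0 in 5 libraries, reached at most 9.04 TPM. Each gene lay above the next in this order in 12 of 12 kidneys from fkbp5 to hsd11b2, from hsd11b2 to tsc22d3 and from hsd20b2 to nr3c1. The order held in 10 of 12 kidneys between tsc22d3 and hsd20b2, so this pair was not separated beyond its spread. Between the receptors, nr3c1 lay above nr3c2 in all 7 kidneys where it had counts and was listed at 0 in the other 5.

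**Figure D1:**
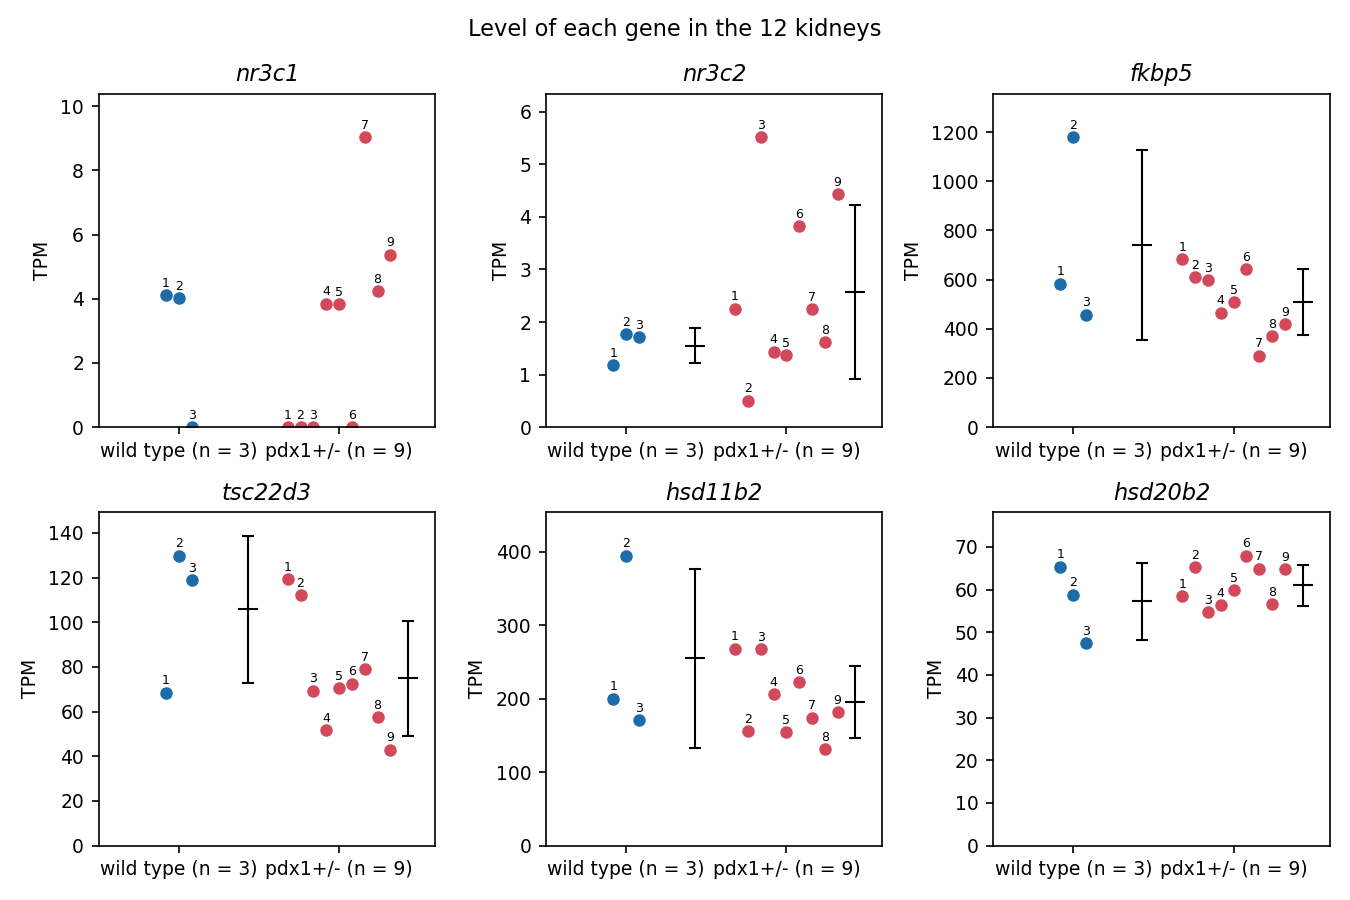
Level of each gene in TPM, 1 point per kidney with its replicate number (blue, wild type, n = 3; red, pdx1+/-, n = 9; bars, mean and SD, not drawn for nr3c1). In nr3c1, wild-type replicate 3 and heterozygous replicates 1, 2, 3 and 6 lie at 0, and in tsc22d3 4 kidneys lie above the other 8.

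The receptor nr3c1 (Entrez 553740) was listed at 0 in 5 of the 12 libraries and was well covered in the other 7. In wild-type replicates 1 to 3 it had 13.2, 11.9 and 0 CPM, from 226, 210 and 0 estimated counts. In the heterozygous libraries it was at 0 in replicates 1, 2, 3 and 6, and at 12.9, 12.2, 29.2, 14.2 and 17.5 CPM in replicates 4, 5, 7, 8 and 9, from at least 222 counts each. The zeros fell in 1 of 3 wild-type and 4 of 9 heterozygous libraries, and no library lay between 0 and 11.9 CPM. Heterozygous replicate 7 stood above the other libraries with counts, at 2.14 times their mean of 13.7 ± 2.05 CPM (SD, n = 6). Because a deposited 0 can be a failed estimate, no mean per genotype and no fold change is given for nr3c1 (edgeR quasi-likelihood test, adjusted p = 0.999).

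Genes around nr3c1 shared its zeros. By place in a RefSeq gene table of assembly GRCz12tu, used here only for names and neighbours, 20 tested genes were taken on each side of nr3c1. Of these 40, 6 had at most 3 counts in each of the same 5 libraries and more in each of the other 7, namely hspa4b, gnpda1, stc2a, dpf2l, hnrnpa0a and cxcl14. The RNA-binding protein gene hnrnpa0a, for example, had 0 counts in the 5 libraries and between 215 and 431 in the 7. The guidance cue gene slit3 had at most 3.89 counts in the 5 and between 106 and 363 in the 7. With slit3, 4 more neighbours were lower in every one of the 5 libraries than in any of the 7, the others being med19a, ndfip1 and fam13b. Neighbours in between did not follow: fgf1a, the tested gene next to nr3c1 on one side, had between 22.4 and 49.0 counts in the 5 and between 27.2 and 45.2 in the 7, and sh3rf2, next on the other side, between 257 and 365 and between 289 and 484.

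Over all 23732 tested genes, 7 had at most 3 counts in these 5 libraries and more in each of the others. They were nr3c1 and the 6 neighbours named above, so all 7 lay on 1 chromosome and within 13 tested genes of nr3c1. For scale, 49 tested genes were at 0 in at least 3 libraries and at 100 or more counts in at least 3. Heterozygous replicate 7, the highest for nr3c1, was also high for several of the same genes: its level was 1.81 times the mean of the other 6 libraries with counts for hnrnpa0a, 2.92 times for dpf2l, 2.88 times for slit3 and 18 times for hspa4b. Among 14631 genes ranked by likeness to nr3c1 over the 12 samples (Pearson's r of log2 CPM), hnrnpa0a, dpf2l, slit3 and fam13b came first. Next was mmgt1, a gene 111 tested genes away in the same order, with at most 11.3 counts in the 5 libraries and at least 50.7 in the 7. The cause of the shared zeros was not tested.

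**Figure D2:**
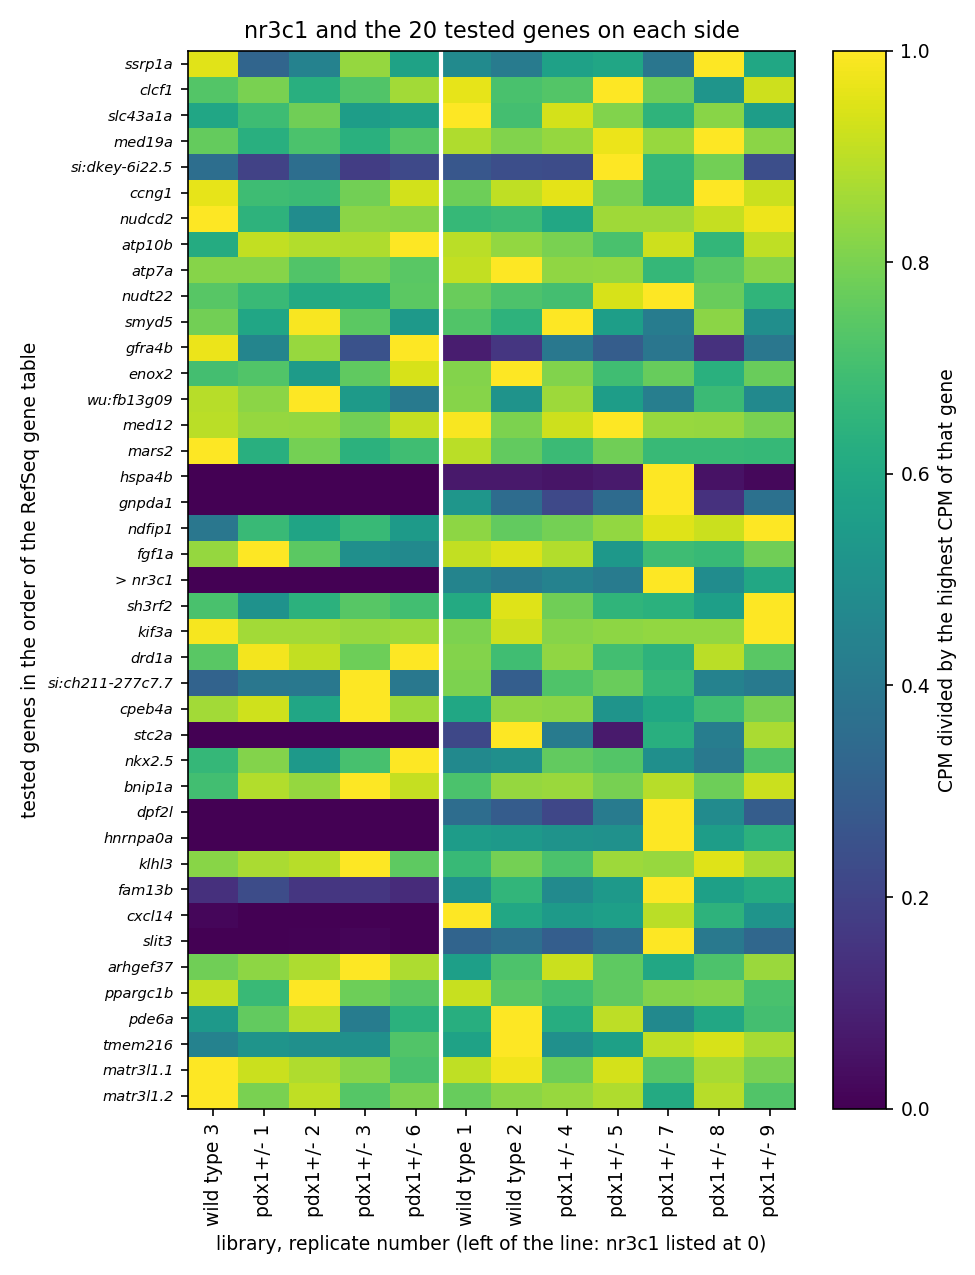
CPM of nr3c1 and of the 20 tested genes on each side of it (rows, in the order of the RefSeq gene table), each divided by its own highest value, in the 12 libraries (columns). Left of the white line are the 5 libraries with nr3c1 listed at 0, where hspa4b, gnpda1, stc2a, dpf2l, hnrnpa0a, cxcl14 and slit3 are also at or near 0 while the genes between them are not.

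The other receptor gene, nr3c2 (Entrez 562171), was detected in every kidney at a low level. It had 3.33, 4.6 and 4.48 CPM in wild-type replicates 1 to 3, a mean of 4.14 ± 0.699 (SD, n = 3). The heterozygous kidneys ranged from 1.41 CPM in replicate 2 over a median of 6.0 to 14.7 CPM in replicate 3, with a mean of 7.1 ± 4.4 (SD, n = 9). Replicates 3, 6 and 9 were highest, and the wild-type values lay inside the heterozygous range, which spanned 10.4-fold. Counts ran from 22.6 to 240, so counting error is largest in replicate 2. In bulk kidney, fewer cells that use a gene and less of its RNA per cell cannot be told apart, here and in all results that follow.

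The log2 difference of nr3c2 between heterozygous and wild-type kidneys was 0.78 ± 0.55 (approximate SE), with 7 of 9 heterozygous samples above the wild-type mean, and it did not pass the test (edgeR quasi-likelihood test, adjusted p = 0.947). No member passed at an adjusted p of 0.05: 0 of 6 in edgeR, where 0.00421% of all tested genes were called, and 0 of 6 in DESeq2, where 0.272% were called. At an unadjusted p under 0.05 the count was also 0 of 6, against 5.68% of all tested genes. These counts include nr3c1, whose test says little with 5 libraries listed at 0.

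The co-chaperone gene fkbp5 (Entrez 368924) had 1202, 2229 and 868 CPM in wild-type replicates 1 to 3. In heterozygous kidneys it ranged from 599 CPM in replicate 7 over a median of 1027 to 1322 CPM in replicate 1. Wild-type replicate 2 stood alone at the top, and the remaining wild-type values lay within the heterozygous range. The mean was 1433 ± 709 CPM in wild type (SD, n = 3), against 1017 ± 231 CPM in the heterozygous group (SD, n = 9). The log2 difference was -0.50 ± 0.26 (edgeR, adjusted p = 0.910), and 9 of 9 heterozygous kidneys were below the wild-type mean. Without wild-type replicate 2 the difference was -0.02.

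The target gene tsc22d3 (Entrez 393541) fell into separate ranges, each with kidneys of both genotypes. Wild-type replicates 1 to 3 had 83.1, 134 and 138 CPM. Heterozygous replicates 1 and 2 had 134 and 137 CPM, and the other 7 lay between 50.5 CPM in replicate 9 and 84.1 CPM in replicate 7. Thus 4 kidneys, 2 of 3 wild-type and 2 of 9 heterozygous, lay between 134 and 138 CPM and the other 8 between 50.5 and 84.1 CPM. The relation of these ranges to genotype was not tested. Wild type averaged 118 ± 30.6 CPM (SD, n = 3) and the heterozygous group 85.1 ± 30.2 CPM (SD, n = 9), a log2 difference of -0.48 ± 0.28 (edgeR, adjusted p = 0.933). Heterozygous kidneys were below the wild-type mean in 7 of 9 cases.

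The split of tsc22d3 was rarely seen in other target genes. Of the 31 tested genes on a list of known glucocorticoid targets, 1 had the same 4 kidneys on top (3.23%), against 85 of all 23732 tested genes (0.358%). It was dusp1, a phosphatase gene that restrains MAP kinases, with 67.5 to 173 CPM in the 4 kidneys and 34.7 to 66.4 CPM in the 8. The ranges of dusp1 adjoin, and its 173 CPM came from heterozygous replicate 2 alone. The effective length of tsc22d3 (estimated count over TPM, relative to other genes) also varied 1.2-fold between samples, from 0.902 in heterozygous replicate 8 to 1.08 in heterozygous replicate 2. That was as much as or more than in all but 6.20% of tested genes, while no other member varied more than 1.01-fold. Its part in the split was not tested.

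The enzyme gene hsd11b2 (Entrez 334098) had 402, 732 and 317 CPM in wild-type replicates 1 to 3. Heterozygous kidneys ranged from 274 CPM in replicate 8 over a median of 370 to 508 CPM in replicate 1. As for fkbp5, wild-type replicate 2 stood above all other kidneys and the rest overlapped. Wild type averaged 483 ± 219 CPM (SD, n = 3) and the heterozygous group 383 ± 85.2 CPM (SD, n = 9), and the log2 difference was -0.33 ± 0.24 (edgeR, adjusted p = 0.950), with 7 of 9 heterozygous kidneys below the wild-type mean. Without wild-type replicate 2 it turned to 0.10.

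The reducing enzyme gene hsd20b2 (Entrez 368367) was the steadiest of the 6. It had 116, 95.9 and 77.7 CPM in wild-type replicates 1 to 3, and heterozygous kidneys ranged from 90.3 CPM in replicate 3 over a median of 104 to 116 CPM in replicate 9. Its highest kidney was 1.49 times its lowest, against 2.67 times for hsd11b2, 2.73 times for tsc22d3, 3.72 times for fkbp5 and 10.4 times for nr3c2. Wild type averaged 96.4 ± 18.9 CPM (SD, n = 3) and the heterozygous group 106 ± 8.33 CPM (SD, n = 9). The log2 difference was 0.13 ± 0.12 (edgeR, adjusted p = 0.978), with 8 of 9 heterozygous kidneys above the wild-type mean, and it was -0.01 without wild-type replicate 3.

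Most genes of the cortisol synthesis pathway varied more between kidneys than the response genes did. The level of cyp17a2, an enzyme gene of the cortisol pathway, was 18.8, 20.4 and 10.7 CPM in wild-type replicates 1 to 3. In heterozygous kidneys it ran from 1.30 CPM in replicate 8, from 25 counts, over a median of 34.3 to 72.8 CPM in replicate 1, from 1322 counts. Wild-type kidneys lay inside this 55.9-fold range, all of them below the median of 22.5 CPM over the 12 kidneys. The highest kidney was 46.4 times the lowest for star, 29.3 times for cyp21a2, 20.9 times for hsd3b1 and 15.8 times for cyp11c1. Heterozygous replicate 8, the kidney highest in exocrine pancreas markers, was the lowest for cyp17a2 and for each of these genes. The next lowest, heterozygous replicate 6, had 6.85 CPM of cyp17a2 and 44.6 CPM of star, against 7.19 CPM of star in replicate 8. These ratios thus rest in large part on replicate 8. The ratio was 34.2 for fdx1b, 11.5 for mrap2a and 7.71 for nr0b1. Counts ran only from 6 to 74 for mrap2a and from 2 to 16 for nr0b1. The lowest count of nr0b1 lay below the floor of 3 counts, and counting error is large in both ratios. Another 5 genes of the interrenal list varied no more than hsd11b2. The ratio was 1.49 for the regulator nr5a1a, 1.61 for the lipoprotein receptor gene scarb1 and 2.14 for fdxr. For the enzyme gene cyp17a1 it was 2.27, and for nr5a1b 2.67. For cyp17a2 the log2 difference between heterozygous and wild-type kidneys was 1.02 ± 0.85 (edgeR, adjusted p = 0.978).

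Pathway genes moved together, and part of the interrenal list did not. Over the 12 kidneys the log2 CPM of star, the cholesterol carrier, cyp11a1.2, the side-chain cleavage enzyme, hsd3b1, cyp21a2 and cyp11c1, which complete the pathway to cortisol, each had r = 0.98 with cyp17a2. Spearman's rho lay between 0.97 and 0.99 for these 5 genes, and each p was 1e-05, the smallest the 100000 permutations can give (adjusted p = 2.8e-05 over the 14 other genes of the list). The corticotropin receptor gene mc2r followed with r = 0.91 (permutation p = 0.00015, adjusted p = 0.00035) and rho = 0.87 (permutation p = 0.00063, adjusted p = 0.00126). Counts of mc2r were low, from 0 to 44, and heterozygous replicate 8 had 0 counts of mc2r and 3 of cyp11a1.2, not above the floor. Without the 2 kidneys farthest from the median of cyp17a2, r was between 0.93 and 0.97 for the 5 genes and 0.80 for mc2r. The ferredoxin gene fdx1b and the transcription factor gene nr5a1b had r = 0.75 each (permutation p = 0.00294 and 0.00446, adjusted p = 0.00588 and 0.0078) and rho of 0.76 and 0.87 (permutation p = 0.0063 and 0.00048, adjusted p = 0.011 and 0.00112). For nr5a1a r was 0.69 (permutation p = 0.0132, adjusted p = 0.0205) and rho 0.68 (permutation p = 0.0182, adjusted p = 0.0284). Of the 14 genes 9 passed, and fdxr, mrap2a, cyp17a1, nr0b1 and scarb1 did not, with r of 0.57, 0.23, 0.16, 0.06 and -0.05 (permutation tests, adjusted p = 0.0806, 0.621, 0.715, 0.867 and 0.867; rho 0.52, 0.26, 0.24, 0.11 and -0.12, adjusted p = 0.125, 0.530, 0.530, 0.733 and 0.733). Without the 2 kidneys farthest from the median of cyp17a2, r was 0.51 for fdx1b, 0.78 for nr5a1b and 0.54 for nr5a1a. Of the genes that did not pass, fdxr then had 0.64, nr0b1 0.48, cyp17a1 0.04, mrap2a -0.01 and scarb1 -0.27. The correlations of fdx1b and of the genes named after it were added after the data were seen. Cyp11a1.1 was listed at 0 in all 12 libraries, and cyp11a1.2 was added after its values were seen. Of 14 tested interrenal genes, 12 were higher and 2 lower in heterozygous kidneys, with a median log2 difference of 0.61, and 0 passed the test in edgeR or DESeq2 or at an unadjusted p under 0.05. Many of these genes moved together, so their directions are not independent. Without heterozygous replicates 4 and 8 the counts were again 12 and 2.

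**Figure D3:**
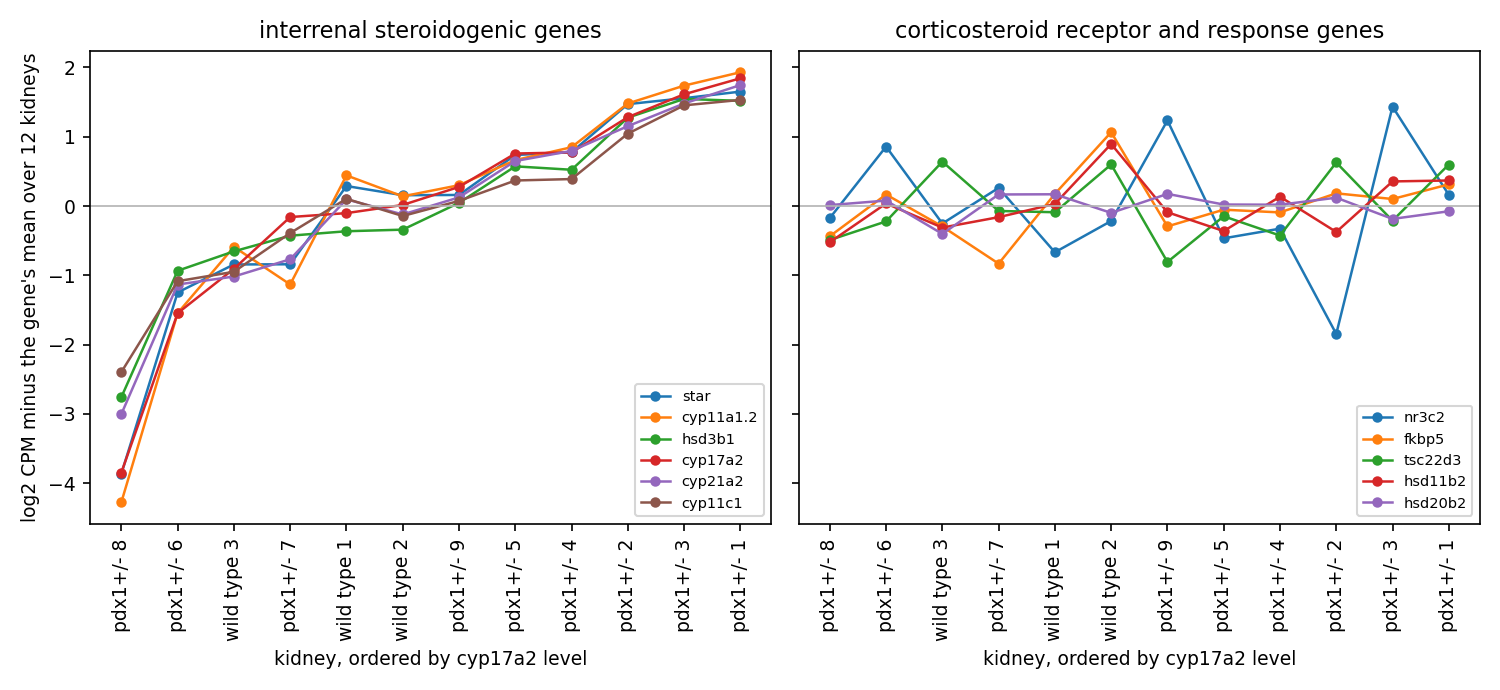
Log2 CPM of each gene minus its mean over the 12 kidneys, with kidneys ordered by cyp17a2 from lowest to highest. The 6 cortisol pathway genes (left) are higher together from heterozygous replicate 8 to heterozygous replicate 1. Of the 5 receptor and response genes (right, on the same scale), nr3c2, fkbp5, hsd11b2 and hsd20b2 do not detectably follow that order. For tsc22d3 no correlation over all 12 kidneys is given.

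Of the receptor and response genes, nr3c2, fkbp5, hsd11b2 and hsd20b2 did not track cyp17a2 detectably. Correlations of log2 CPM were computed for these genes with the interrenal genes, with cell type scores and with each other, 106 pairs in all. With cyp17a2, r was 0.41 for hsd11b2 (rho 0.41, permutation p = 0.182 for r and 0.194 for rho, adjusted p = 0.716 and 0.651). It was 0.32 for fkbp5 (rho 0.50, permutation p = 0.288 for r and 0.104 for rho, adjusted p = 0.716 and 0.503). It was -0.03 for nr3c2 (rho -0.06, permutation p = 0.928 for r and 0.869 for rho, adjusted p = 0.990 and 0.988). It was -0.02 for hsd20b2 (rho -0.11, permutation p = 0.946 for r and 0.734 for rho, adjusted p = 0.990 and 0.967).

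The values for hsd11b2 and fkbp5 rested on the extremes of cyp17a2. Without the 2 farthest kidneys they were 0.04 and 0.08, and those of nr3c2 and hsd20b2 were -0.16 and 0.07. Within the 9 heterozygous kidneys r was 0.57 for hsd11b2, 0.47 for fkbp5, -0.06 for nr3c2 and -0.26 for hsd20b2 (permutation tests, p = 0.105, 0.206, 0.866 and 0.485). No pooled correlation is given for nr3c1 or tsc22d3, since their samples fall into separate ranges, and for both r serves below and above only to rank the genes most like them. Within the 8 kidneys of the lower tsc22d3 range, r with cyp17a2 was 0.19 (permutation p = 0.645, adjusted p = 0.912 over 25 pairs) and rho 0.05 (permutation p = 0.934, adjusted p = 1.0).

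**Figure D4:**
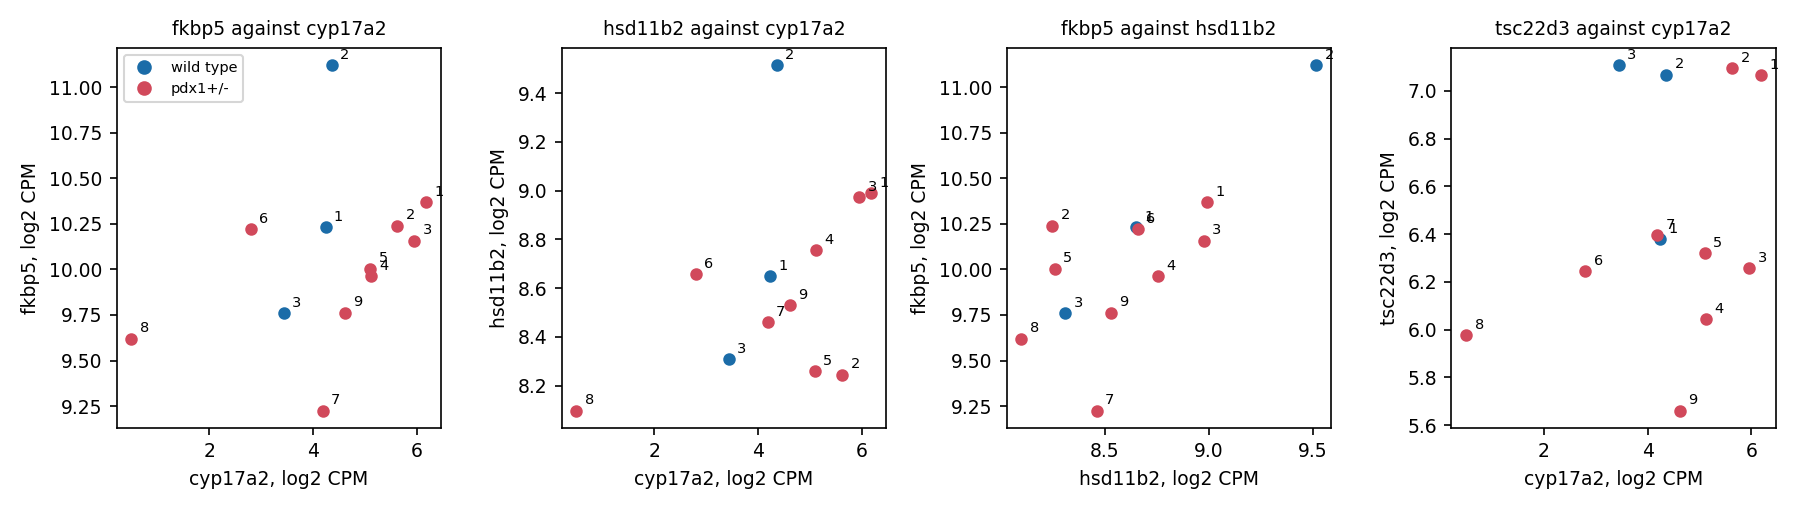
Log2 CPM of fkbp5, hsd11b2 and tsc22d3 against cyp17a2 and of fkbp5 against hsd11b2, 1 point per kidney with its replicate number (blue, wild type; red, pdx1+/-). Heterozygous replicate 8 lies at the far left for cyp17a2, and wild-type replicate 2 lies at the top for fkbp5 and hsd11b2.

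Of the 106 pairs, 0 passed an adjusted p of 0.05 by Pearson's r, and 9 had an unadjusted permutation p under 0.05. The lowest p was that of fkbp5 with hsd11b2, with r = 0.75 (permutation p = 0.00688, adjusted p = 0.520) and rho = 0.57 (permutation p = 0.0593, adjusted p = 0.50). This r was 0.40 without the 2 kidneys farthest in hsd11b2 and 0.45 in the heterozygous kidneys alone (permutation p = 0.221). By rank, the closest pair was nr3c2 with the distal tubule score, the mean centred log2 CPM of 12 tubule markers, with rho = 0.85 (permutation p = 0.0008, adjusted p = 0.0848). Its r was 0.61 (permutation p = 0.0390, adjusted p = 0.520) and was 0.73 without the 2 farthest kidneys. The summed level of these markers was 1288 to 1783 CPM in wild-type and 1070 to 1946 CPM in heterozygous kidneys. Its part in the level of nr3c2 was not tested.

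Levels were also set beside ddc, which encodes aromatic L-amino acid decarboxylase, with 6 kidneys at 111 to 220 CPM and 6 at 4332 to 6469 CPM. The level of hsd11b2 was 370 to 732 CPM in the kidneys with much ddc and 274 to 402 CPM in the others, and 5 of the 6 former lay above all of the latter. At least 5 did so for 4.09% of all tested genes. The count was 3 of 6 for nr3c2, 2 of 6 for fkbp5, 1 of 6 for hsd20b2 and 0 of 6 for tsc22d3 and nr3c1. Counts of at least 3 were seen in 13.7% of all tested genes and counts of at least 2 in 24.4%. Within the kidneys with little and with much ddc, r of fkbp5 with hsd11b2 was 0.14 and 0.94 (exact permutation p = 0.782 and 0.0125, adjusted p = 0.94 and 0.66). The kidneys with much ddc include wild-type replicate 2, the highest in both genes. In the same ranges r of hsd11b2 with cyp17a2 was 0.41 and 0.21 (exact permutation p = 0.414 and 0.678, adjusted p = 0.87 and 0.94).

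The list of glucocorticoid target genes was set beside the members in the same way, in a family of 120 pairs added after the data were seen. By Pearson's r 4 pairs passed an adjusted p of 0.05. The glutamine synthetase gene glulb correlated with fkbp5 (r = 0.87, permutation p = 0.00074, adjusted p = 0.0318; rho 0.65, permutation p = 0.0262, adjusted p = 0.259). It also correlated with hsd11b2 (r = 0.85, permutation p = 0.00106, adjusted p = 0.0318; rho 0.68, permutation p = 0.0188, adjusted p = 0.259). The insulin receptor substrate gene irs2a correlated with hsd11b2 (r = 0.87, permutation p = 0.00038, adjusted p = 0.0318; rho 0.85, permutation p = 0.00103, adjusted p = 0.124). The cell cycle inhibitor gene cdkn1a ran opposite to nr3c2 (r = -0.81, permutation p = 0.00083, adjusted p = 0.0318; rho -0.80, permutation p = 0.00228, adjusted p = 0.137).

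The calls lay close to the threshold, and those with glulb and irs2a depended in size on wild-type replicate 2. Wild-type replicate 2 had 264 CPM of glulb, with the other kidneys between 30.1 and 96.3 CPM, and it had the highest irs2a, at 98.0 CPM against at most 66.4 CPM. The count of pairs passing fell to 0 without wild-type replicate 2, wild-type replicate 3, heterozygous replicate 5 or heterozygous replicate 9, and to 1 without heterozygous replicates 4 and 8. Without wild-type replicate 2, r was 0.71 for fkbp5 with glulb, 0.67 for hsd11b2 with glulb, 0.74 for hsd11b2 with irs2a and -0.84 for nr3c2 with cdkn1a. Over all fits without 1 kidney, r of nr3c2 with cdkn1a stayed between -0.86 and -0.76. Without the 2 kidneys farthest from the median of the target gene, r was 0.51 for fkbp5 with glulb, 0.77 for hsd11b2 with glulb, 0.75 for hsd11b2 with irs2a and -0.82 for nr3c2 with cdkn1a. Within the kidneys with little ddc, r of hsd11b2 with glulb turned to -0.32. Of the 30 target genes given a pooled value, 26 had a negative r with nr3c2, against 13 with fkbp5, 17 with hsd11b2 and 14 with hsd20b2, a description without a test. The share of all tested genes with a negative r is not given beside these counts. Target genes can move together, so their signs need not be independent. In the lower tsc22d3 range, 0 of 30 target genes passed with tsc22d3.

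Genes with the closest pattern to each member were taken from 14631 ranked genes. Among so many genes and with 12 samples, the highest r can be large without any relation, and these r were not tested. For nr3c2 they were hook1, bcl9, rapgef1a, tbc1d10ab and tesk2 (r from 0.91 to 0.94 over 12 samples). For fkbp5 they were myo16, kat6b, map4k2, wbp2 and arf3b (r from 0.87 to 0.91), with glulb sixth. For tsc22d3 they were plecb, tacc1, arhgap17a, pdlim5b and hyal1, by rank of r alone, and ddit4, a target gene that restrains TOR signalling, ranked 8. For hsd11b2 they were zmiz2, prr5a, hipk2, caln1 and selenot1a (r from 0.94 to 0.96), and for hsd20b2 nlrc11, gnao1a, mtmr3, ube2ql1 and mapk4 (r from 0.85 to 0.87).

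The wider pathway was described by lists, beside all tested genes, of which 12262 were higher and 11470 lower in heterozygous kidneys, with a median log2 difference of 0.01. In each list 0 genes passed the test in edgeR and 0 in DESeq2. Counts of list genes with an unadjusted p under 0.05 in edgeR stand beside a share of 5.68% of all tested genes. All 31 tested glucocorticoid targets together had a median of -0.17, with 8 higher and 23 lower, and 4 had an unadjusted p under 0.05. The receptor-induced transcription factor gene klf9 had 80.6, 74.0 and 49.2 CPM in wild type and from 22.0 over a median of 36.5 to 73.2 CPM in heterozygous kidneys. Of these 9 kidneys, 7 lay below all wild-type values, replicates 2 and 8 being the exceptions, and the log2 difference was -0.78 ± 0.28 (edgeR, adjusted p = 0.809). How many of all tested genes had as many kidneys outside the wild-type range was not counted. The clock gene per1a was at -0.51 ± 0.16 (edgeR, adjusted p = 0.715), the clock gene cry2 at -0.40 ± 0.18 (edgeR, adjusted p = 0.863) and anxa1a, the gene of the anti-inflammatory annexin A1, at -0.51 ± 0.17 (edgeR, adjusted p = 0.780). Each of these 3 was below the wild-type mean in 9 of 9 heterozygous kidneys. They and klf9 were picked from the list by their p, and the share of all tested genes with 9 of 9 on 1 side is not given. The hour of collection is not in the labels. Without heterozygous replicates 4 and 8 the counts were again 8 and 23. The median moved to -0.08 without wild-type replicate 1 (11 higher, 20 lower), to -0.11 without heterozygous replicate 9, to -0.27 without heterozygous replicate 1 and to -0.33 without heterozygous replicate 2 (5 higher, 26 lower).

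Of 15 receptor coregulators, which bind receptors on chromatin, 0 were higher and 15 lower in heterozygous kidneys, with a median of -0.15, and 3 had an unadjusted p under 0.05. The lowest p was that of the coactivator gene ncoa1, with 65.8, 59.0 and 59.3 CPM in wild type and from 47.3 over a median of 53.9 to 55.5 CPM in heterozygous kidneys. Its groups did not overlap, yet its log2 difference of -0.21 ± 0.08 did not pass (edgeR, adjusted p = 0.809). The share of all tested genes without such overlap was not counted. The acetyltransferase genes crebbpa and ep300b were at -0.25 ± 0.10 and -0.26 ± 0.11 (edgeR, adjusted p = 0.815 and 0.845). Nrip1a followed by p, at -0.25 ± 0.14 (edgeR, adjusted p = 0.913). Without heterozygous replicates 4 and 8 the counts were again 0 and 15; they were 1 and 14 without wild-type replicate 1 and 2 and 13 without wild-type replicate 2.

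Receptor chaperones were split, with 10 higher and 9 lower and a median of 0.01, and 2 had an unadjusted p under 0.05. The Hsp90 gene hsp90ab1, whose product holds the receptor ready for hormone, averaged 2334 ± 120 CPM in wild type (SD, n = 3), against 1963 ± 228 CPM with the mutation (SD, n = 9), a log2 difference of -0.25 ± 0.11 (edgeR, adjusted p = 0.864). Fkbp4, a co-chaperone that competes with Fkbp5 for the receptor complex in mammals, was at 0.23 ± 0.14 (edgeR, adjusted p = 0.937). Between hsp90ab1 and fkbp4 by p were hspa8 at -0.29 ± 0.13 and ppp5c at 0.25 ± 0.13 (edgeR, adjusted p = 0.869 and 0.910). Of 21 tested mineralocorticoid target and ion transport genes, 16 were higher and 5 lower, with a median of 0.12, and 0 had an unadjusted p under 0.05. The sodium pump gene atp1b1a was at 0.21 ± 0.12 (edgeR, adjusted p = 0.921) and the sodium chloride cotransporter gene slc12a3 at 0.23 ± 0.17 (edgeR, adjusted p = 0.950). Between them by p were cul3b at -0.18 ± 0.11 and klhl3 at 0.18 ± 0.12 (edgeR, adjusted p = 0.943 and 0.947). Of 17 other corticosteroid metabolism genes, 7 were higher and 10 lower, with a median of -0.04, and 1 had an unadjusted p under 0.05. The carbonyl reductase gene cbr1 had 24.3, 25.5 and 23.2 CPM in wild type and from 27.2 over a median of 30.7 to 35.2 CPM in heterozygous kidneys. All 9 lay above all wild-type values, and its log2 difference of 0.37 ± 0.10 had the lowest p of all these lists but did not pass (edgeR, adjusted p = 0.627). Cbr1 was picked by its p, and the share of all tested genes with separate groups was not counted. Next by p in the metabolism list were genes that were lower, namely abcb4 at -0.44 ± 0.21, sult2st3 at -0.58 ± 0.28 and srd5a2a at -0.37 ± 0.23 (edgeR, adjusted p = 0.886, 0.886 and 0.943). Without heterozygous replicates 4 and 8, the 3 lists had 9, 15 and 7 genes higher and 10, 6 and 10 lower, and the median of the metabolism list was -0.23. The mineralocorticoid list had 12 higher and 9 lower without wild-type replicate 2 (median 0.02) or heterozygous replicate 6 (median 0.06), and its median was 0.04 without wild-type replicate 1 and 0.07 without heterozygous replicate 3. Leaving out 1 kidney took the median of the metabolism list from -0.30, without wild-type replicate 3, to 0, without heterozygous replicate 1, and that of the chaperones from -0.05 to 0.05.

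**Figure D5:**
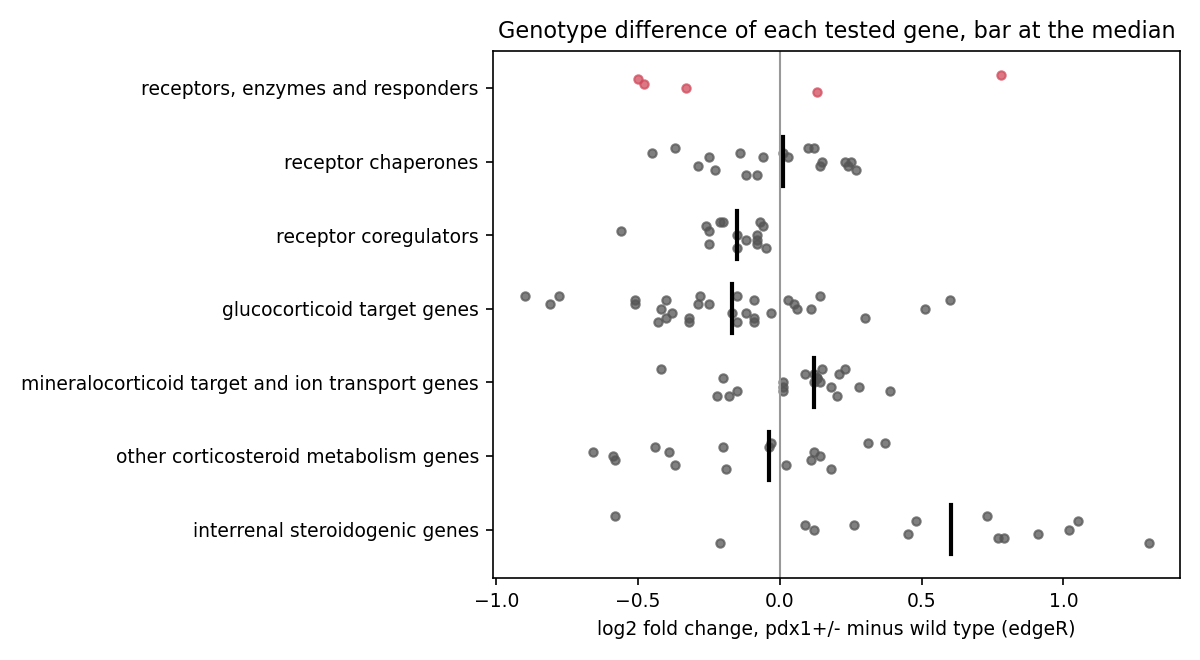
Log2 difference between heterozygous and wild-type kidneys for each tested gene of the pathway lists (points, edgeR; vertical bar, median of the list; top row, 5 of the 6 members, without nr3c1). All 15 coregulators lie left of 0, and most interrenal genes lie right of it, with a median of 0.61.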

How the data were processed

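RNA came from RNAlater-stored kidneys and an RNeasy kit, per the labels' protocols. Per the submitters' processing notes, Trim Galore 0.6.4, kallisto (listed as 0.4.6) and build GRCz11 were used; annotation, strand use and the step from transcripts to genes are not given in the sources used here. Per gene, the authors deposited estimated counts, not normalized, and TPM values, scaled for length and depth. Symbols came from a RefSeq table of assembly GRCz12tu, which named 25812 of 30238 IDs. Kallisto divides reads shared between transcripts: estimated counts were not whole (tolerance 0.05) in 12 libraries for tsc22d3, 11 for nr3c2 and hsd20b2, 6 for nr3c1, 1 for fkbp5 and 0 for hsd11b2.

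Counts were rounded and tested in R 4.3.3 with the edgeR 4.0.16 quasi-likelihood test (TMM, filterByExpr with minimum count 10, no covariate, all 12 samples), with Benjamini-Hochberg adjustment over 23732 genes and a threshold of 0.05. Standard errors are approximate, the log2 fold change over the square root of F. Correlations used log2 CPM (prior count 2) and 100000 permutations, or all of them for small n. Samples counted as separate ranges, a rule set after values were seen, where the largest gap was at least 0.333 of the range with at least 3 samples on each side. Named list genes are the 4 with the smallest p, and likeness was ranked among genes with a mean of at least 2 CPM and a symbol that is not clone-style. Other names, and those around nr3c1, were picked once values had been seen. The members and lists were chosen with earlier results of these data known. Alternatives were other scalings and filters, DESeq2 1.42.0, limma 3.58.1 (voom, and trend on log2 TPM with pseudocounts 1 and 0.1), sva 3.50.0, a replicate block, ddc as a covariate, and left-out samples. The edgeR procedure was also tested on simulated data. No pair of libraries agreed within sampling noise (lowest chi-square per gene 16.7). Floors cover counting error only.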

Additional observations from a re-analysis of the deposited data

How the results depend on the processing

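Between genotypes edgeR called 1 gene; DESeq2 called 62, limma-trend on log2(TPM + 0.1) 3, the fit with ddc as a covariate 3, and fits without 1 sample from 1 to 4 (4 without heterozygous replicate 5 and 2 without replicate 2). The cause was not tested. None of these genes was a member under any alternative run. Of 115 alternative member differences, 113 kept their direction and did not pass, with a lowest adjusted p of 0.551 (edgeR, DESeq2 or limma). Those that reversed were hsd11b2 without wild-type replicate 2 (0.10) and hsd20b2 without wild-type replicate 3 (-0.01). Without 1 sample each, differences ranged from 0.57 to 0.92 for nr3c2, from -0.76 to -0.02 for fkbp5, from -0.67 to -0.36 for tsc22d3, from -0.57 to 0.10 for hsd11b2 and from -0.01 to 0.29 for hsd20b2. Alternatives for the nr3c1 difference are not reported, because 5 of its libraries are listed at 0.

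Replicate numbers did not pair the samples: deviations of same-numbered samples correlated at -0.22, -0.16 and 0.10. With the replicate number as a block, 0 genes and 0 members were called. Heterozygous replicates without a wild-type sample of the same number add nothing to the genotype difference in this fit. It therefore rests on few samples, and 0 calls say little. The member differences were 0.40 (nr3c2), -0.11 (fkbp5), -0.04 (tsc22d3), -0.07 (hsd11b2) and 0.06 (hsd20b2). In the same fit the coregulators were 2 higher and 13 lower, and the glucocorticoid targets 13 higher and 18 lower (median -0.04). Over the other alternative fits the median of the glucocorticoid targets was from -0.33, with log2(TPM + 0.1), to -0.16, and that of the mineralocorticoid list was 0.03 on both TPM scales.

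Correlations with cyp17a2 never passed. They changed sign with log2(TPM + 1) for nr3c2 (0.04) and hsd20b2 (0.04), in kidneys with little ddc for hsd20b2 (0.25), in those with much ddc for fkbp5 (-0.10), and without the 2 farthest samples for hsd20b2 (0.07). Without 1 sample each they ranged from -0.24 to 0.19 (nr3c2), 0.16 to 0.46 (fkbp5), 0.17 to 0.58 (hsd11b2) and -0.24 to 0.10 (hsd20b2). The 4 pairs with target genes became 7 with log2(TPM + 1), 1 without heterozygous replicates 4 and 8, and 0 by Spearman's rho, in heterozygous kidneys alone, in either ddc range and without the 2 farthest samples. Without 1 sample each the count was from 0 to 6, and hsd11b2 with glulb was -0.32 in kidneys with little ddc.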
